A study of Homo sapiens with 36 samples.

Results

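The 80S fraction of RBPMS knockout cells was compared with the 40S fraction of the same cultures. The comparison took the 6 knockout (KO) libraries labelled 40S or 80S, out of 36 in the series, paired by the culture number 1, 2 or 3. Transcripts were included where at least 3 of these 6 libraries reached 10 TPM (an abundance scaled for transcript length and to a total of 1000000 per library), which kept 4646 of 223367 listed transcripts.

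The cells were of HUES6, a human embryonic stem cell line kept in FTDA medium, in a form labelled RBPMS KO and in a WT form. Each was numbered 1 to 3 in the labels, and these numbers are called cultures here. All cultures, KO and WT, carried the label "control" for treatment and received cycloheximide at 100 ng/ml for 5 min, which stalls elongating ribosomes on mRNA. Lysates were divided by polysome profiling into 40S, 80S, disome and 2 polysome samples, beside an unfractionated Input, and equal amounts of RNA from each went into a stranded mRNA library. Whether the KO cultures derive from 1 clone or several is not stated by the labels, so the results describe only these cultures. The main fit of the KO libraries took out the mean of each culture and of each fraction. Its p-values measure the spread then left, over all 18 KO libraries and not 40S and 80S alone.

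In a gradient, RNA sediments with what is bound to it. The 40S zone holds free small ribosomal subunits, initiation complexes that have not yet joined a large subunit, and other ribonucleoprotein particles of like size. The 80S zone holds single complete ribosomes, both those translating an mRNA and those without one, and heavier zones hold mRNAs with several ribosomes. RBPMS is an RNA-binding protein with an RNA recognition motif. Because TPM is scaled to a fixed total, each value is a share of its library. Equal RNA input also removes how much RNA each fraction held. Fewer molecules in a fraction thus cannot be told apart from a fraction richer in other RNA.

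The table lists versioned Ensembl transcript IDs with no gene names, and none of them could be matched to a gene with the tables used here. The level of RBPMS, the cell type markers of HUES6 and the gene groups were therefore not analysed here, and the knockout is taken from the labels. Here 2 transcripts that rose and 2 that fell are named by ID, and the rest are described by their values.

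The libraries labelled KO culture 3 stood apart from those of KO cultures 1 and 2 in both fractions. Over the 4646 transcripts, Pearson's r of log2(TPM + 1) between KO 40S culture 3 and KO 40S cultures 1 and 2 was 0.33 and 0.57, and with WT 40S cultures 1 and 2 it was 0.89 and 0.90. KO 80S culture 3 correlated with the other KO 80S libraries at 0.26 and 0.49 and with the 3 WT 80S libraries at 0.85 to 0.92. One WT library stood apart likewise: WT 40S culture 3 correlated at 0.50 and 0.54 with the other WT 40S libraries and at 0.69 and 0.74 with KO 40S cultures 1 and 2. These correlations are across transcripts that were chosen on the KO libraries and are not independent replicates. Because RBPMS could not be read, whether these libraries hold the genotype they are labelled with cannot be told here. Every KO and WT value below is that of the libraries as labelled, and the counts of calls are also given with culture 3 left out.

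**Figure D1:**
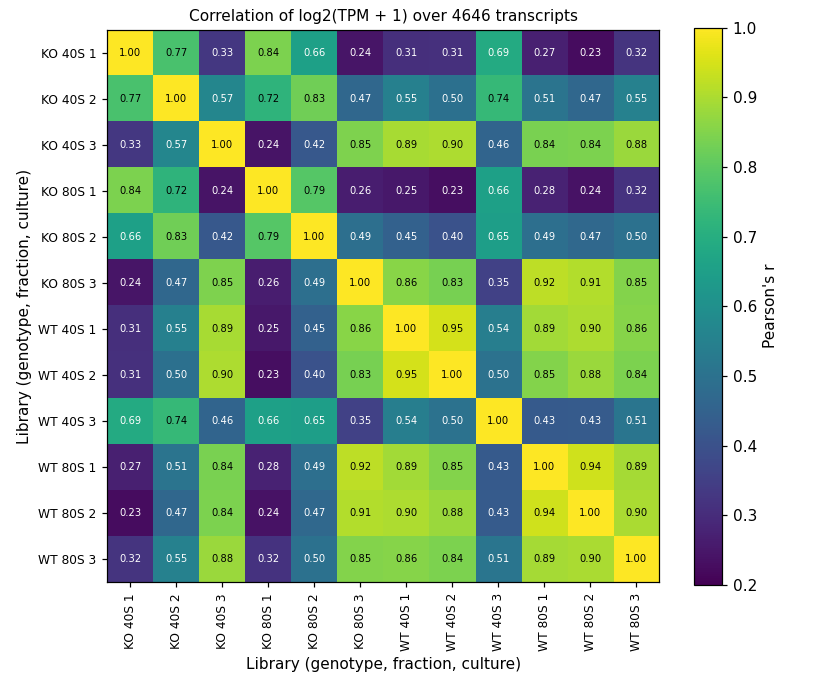
Pearson's r of log2(TPM + 1) over the 4646 transcripts for each pair of the 6 KO and 6 WT libraries of the 40S and 80S fractions, with colour and printed number giving r. KO 40S and KO 80S of 1 culture pair at 0.83 to 0.85, while KO culture 3 pairs with most WT libraries above 0.83 and WT 40S culture 3 does not.

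Within KO, libraries resembled each other by culture more than by fraction. The 40S and 80S libraries of 1 KO culture correlated at 0.83 to 0.85. The 3 KO 40S libraries correlated with each other at 0.33 to 0.77, and the 3 KO 80S libraries at 0.26 to 0.79. In WT the 3 80S libraries correlated at 0.89 to 0.94, and the 40S and 80S libraries of 1 culture at 0.51 to 0.89, with the low value from WT 40S culture 3. The test took the difference between fractions within each culture.

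Fewer transcripts made up KO 40S than KO 80S. At 1 TPM or more, KO 40S held 12597, 14189 and 16331 transcripts in cultures 1, 2 and 3, and KO 80S held 18407, 18851 and 27832. All 3 80S values lay above all 3 40S values, and the 80S library held 1.33 to 1.70 times as many transcripts as the 40S library of its culture. The 10 most abundant transcripts took 59.5%, 33.5% and 39.9% of KO 40S and 18.1%, 13.3% and 11.2% of KO 80S, without overlap. To reach 0.5 of all TPM took 7, 34 and 28 transcripts in KO 40S and 96, 120 and 171 in KO 80S. With 3 pairs, the 2-sided exact permutation test by sign flips cannot go below p = 0.25, and each of these measures gave 0.25 (adjusted 0.25 over 5 measures).

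The spike-in RNA of the External RNA Controls Consortium (ERCC) also took a larger share of KO 40S. Its total was 3589, 1925 and 2537 TPM in KO 40S and 413, 211 and 107 TPM in KO 80S, a ratio of 8.70 to 23.7 within cultures (exact permutation p = 0.25). The same total was 97.8 to 876 TPM in WT 40S and 18.5 to 36.5 TPM in WT 80S. The labels do not state at what step the spike-in was added.

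**Figure D2:**
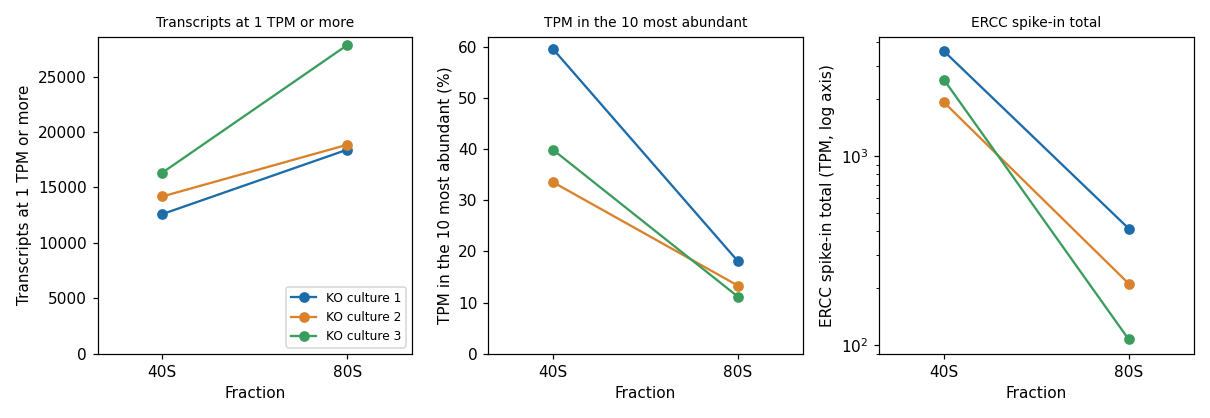
Number of transcripts at 1 TPM or more, share of TPM in the 10 most abundant transcripts (%) and ERCC total (TPM, log axis) in the KO 40S and KO 80S libraries, with a line joining the 2 libraries of each culture. In all 3 cultures the 80S library holds more transcripts, a smaller share in its top 10 and less ERCC RNA, and culture 3 has the most transcripts at 27832.

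A small set of very abundant transcripts made up much of KO 40S and was lower in KO 80S. The most abundant transcript of KO 40S was the same in cultures 1 and 2. It was at 285995, 90720 and 42259 TPM in KO 40S cultures 1, 2 and 3 and at 42722, 13381 and 8687 TPM in the 80S of the same cultures. The level fell in every culture, although culture 1 at 80S lay above culture 3 at 40S, so the 2 groups overlapped. Its log2 difference was -2.60 (SE 0.66, limma adjusted p = 0.01948), but 1.03 after scaling to the ERCC total (SE 0.55, limma adjusted p = 0.06895). Quantile normalization cut it to -0.83 (limma adjusted p = 0.4403). The call also ended, at nearly the same difference as in TPM as deposited, without the culture block (-2.60, limma adjusted p = 0.2513), without culture 2 (-2.51, 0.2865), without culture 3 (-2.75, 0.1644) and with 10 TPM required in all 6 libraries (-2.60, 0.07257). It was called in the same direction in WT, at -3.30 (SE 0.42, limma adjusted p = 9.608e-05), and not after ERCC scaling (0.22, limma adjusted p = 0.7334).

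The level of this transcript in the heaviest fraction differed between libraries, which was not tested. In WT it was at 27336 to 43306 TPM in 40S, at 3079 to 4217 TPM in 80S and at 208 to 527 TPM in Polysome2. In KO Polysome2 it was at 28607 and 10136 TPM in cultures 1 and 2 and at 1653 TPM in culture 3. Culture 3 lay closest to the WT range.

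The most abundant transcript of KO 40S culture 3 was a different one. It was at 192789 TPM in culture 3 and at 30806 and 31783 TPM in cultures 1 and 2. In KO 80S it was at 11618, 13341 and 21627 TPM in cultures 1, 2 and 3. It was lower in 80S in all 3 cultures, by 1.41, 1.25 and 3.16 on the log2 scale, and the groups did not overlap. The mean difference missed the threshold (-1.94, SE 0.85, limma adjusted p = 0.1325). It was called lower with the spread from only the 6 compared libraries and the block (-1.94, limma adjusted p = 0.02736) and with median-of-ratios scaling (-2.96, 0.03184), and called higher with ERCC scaling (1.69, 0.00254). Quantile normalization gave -0.13 (0.9443), and leaving out culture 3 gave -1.33 (0.4776).

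The 10 most abundant transcripts of the 3 KO 40S libraries formed a set of 16, of which 5 were in the top 10 of all 3. All 16 were among the tested transcripts. Of these, 15 had a negative difference and 12 were lower in the 80S of all 3 cultures, with a median of -1.26 on the log2 scale against 0.95 over all tested transcripts. Of the 16, 2 were called lower and none higher, beside 0.0861% and 12.5% of all tested transcripts. In WT, 15 of the 16 had a negative difference too, with a median of -1.25 against 1.48 over all tested transcripts. There 5 of the 16 were called lower, beside 1.36% of all tested. The set was chosen for high 40S values, so its direction is a description and not a test. The number with a negative difference was 16 with median-of-ratios scaling, 14 with quantile normalization and 0 with ERCC scaling, which called 14 of the 16 higher with a median of 2.36. ERCC scaling divides each library by its ERCC total, so it moves all very abundant transcripts of a library alike. The turn of the 16 thus follows by construction from the lower ERCC totals of KO 80S.

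In TPM as deposited, most tested transcripts had larger values in KO 80S. The limma test called 581 transcripts higher in 80S, 12.5% of those tested, and 4 lower, 0.0861% (Benjamini-Hochberg adjusted p under 0.05, 18 KO libraries with culture as a block). The median log2 difference over all tested transcripts was 0.95, on the log2(TPM + 1) scale. After TPM was rescaled without the 50 most abundant transcripts, the median was 0.18. All 3 KO 80S values lay above all 3 KO 40S values in 24.1% of the tested transcripts and below them in 0.538%.

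The balance of higher and lower calls moved with the scaling, which also moved the median and the number of calls. Quantile normalization and median-of-ratios scaling centre the differences near 0 by construction, so their more even split follows from that centring. Quantile normalization placed the median at -0.04 and gave 248 higher and 111 lower calls, a share of 69.1% higher against 99.3% in the TPM as deposited. Median-of-ratios scaling placed it at 0.02 and gave 293 higher and 120 lower, or 70.9% higher. TPM rescaled without the 50 most abundant transcripts placed it at 0.18 and gave 76 higher and 4 lower, or 95% higher. Scaling to the ERCC total moved it to 3.12 and gave 4554 higher and 0 lower, with 0 lower also at an unadjusted limma p under 0.05. All of the 248 and of the 293 were among the 581, and none of the 581 was called lower in any of the settings tried.

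**Figure D3:**
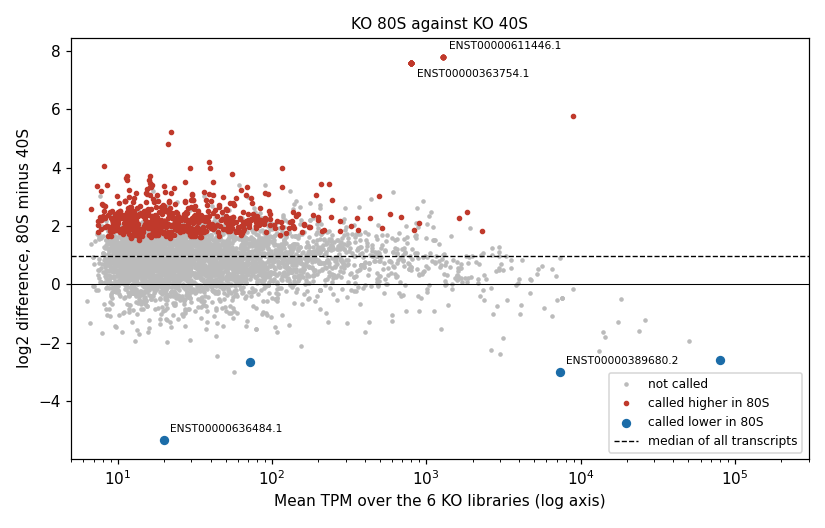
The log2 difference of KO 80S minus KO 40S for each of the 4646 transcripts against its mean TPM over the 6 libraries (log axis), with calls at limma adjusted p under 0.05 in colour. The 581 higher calls sit above 1.5 at all levels, the dashed median lies at 0.95, and 2 of the 4 lower calls are among the most abundant transcripts.

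Among the 581, the median log2 difference was 2.18, with a range of 1.51 to 7.79. Their median level was 7.53 TPM in KO 40S and 39.0 TPM in KO 80S, against 18.5 and 37.3 TPM over all tested transcripts (medians of the mean of 3 libraries). All 581 were higher in the 80S of all 3 cultures, against 65.0% of all tested transcripts. Of the 581, 451 (77.6%) had no overlap between fractions, against 24.1% of all tested. The 581 were called on this same difference, which favours both traits. By culture, the medians of the 581 were 2.25, 1.85 and 2.41.

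Higher calls were more frequent among transcripts low in 40S. The 40S level is part of the difference tested, so this is a description and not a separate trait of the 581. Of the 1562 transcripts at 10 TPM or more in all 3 KO 40S libraries, 77 were called higher (4.93%). Of the 401 that reached 10 TPM in no KO 40S library and in all 3 KO 80S libraries, 247 were called (61.6%). Those 401 passed the filter only through the fraction in which they were high, so they had to differ. With only the 1461 transcripts at 10 TPM or more in all 6 libraries tested, 6 were called higher and 1 lower.

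Calls were spread over the range of abundance. Ranked on mean TPM and cut into 5 equal bins, the transcripts of the lowest bin, at 6.30 to 13.98 TPM, included 150 higher calls (16.1%), and those of the highest, from 92.8 TPM, 81 (8.72%). The median difference fell from 0.99 to 0.88 between these bins. In the 100 most abundant transcripts it was 0.25, with 4 called higher and 2 lower.

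ENST00000611446.1 had the largest rise. It was at 13.8, 11.4 and 3.83 TPM in KO 40S cultures 1, 2 and 3 and at 2200, 4513 and 973 TPM in KO 80S. Every 80S value was far above every 40S value. The log2 difference was 7.79 (SE 0.87, limma adjusted p = 4.477e-06), and 7.22, 8.50 and 7.65 by culture. It rose in WT as well, from 2.92, 9.83 and 31.1 TPM in 40S to 1168, 608 and 346 TPM in 80S (log2 difference 5.82, SE 1.03, limma adjusted p = 0.0005365).

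Beyond 80S, ENST00000611446.1 stayed high in the heavier KO fractions. It was at 27615, 1204 and 680 TPM in KO disome, at 1637, 4538 and 624 TPM in KO Polysome1 and at 2524, 8624 and 2426 TPM in KO Polysome2. KO Input held 121, 77.7 and 43.7 TPM, below all KO 80S values. The 27615 TPM in KO disome culture 1 stood apart from the other 2 disome libraries. The table gives 8 transcript IDs, this one included, the same value in each of the 36 libraries, so the estimate cannot be tied to 1 of them.

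ENST00000363754.1 had the next largest rise. It was at 5.85 and 4.68 TPM in KO 40S cultures 1 and 2 and listed at 0 in culture 3, and at 849, 3847 and 83.3 TPM in KO 80S. The groups did not overlap, and culture 3 was the lowest in both fractions. Among the 6 compared libraries it reached 10 TPM only in 80S, so it entered the test only through the fraction in which it was high and had to differ. The log2 difference was 7.59 (SE 0.83, limma adjusted p = 4.256e-06). In WT it went from 1.11, 3.53 and 10.1 TPM to 51.8, 32.1 and 11.7 TPM, a difference of 2.57 (SE 1.03, limma adjusted p = 0.04294). That WT call ended with quantile normalization (1.06, limma adjusted p = 0.5159), median-of-ratios scaling (1.12, 0.563) and without WT culture 1 (1.53, 0.2357) or WT culture 2 (2.42, 0.197), among other settings. The difference between KO and WT was 5.02 (SE 1.37), above the threshold of the test at a limma adjusted p of 0.1169, and was called after quantile normalization (6.18, limma adjusted p = 0.04413) and without WT culture 1 (6.05, 0.04395). Without WT culture 3 it was 3.83 and without culture 3 of both genotypes 4.42 (limma adjusted p = 0.6357 and 0.4722). A set of 20 transcript IDs shared these values.

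ENST00000636484.1 had the largest fall. It was at 31.0, 43.1 and 45.1 TPM in KO 40S, listed at 0 in KO 80S cultures 1 and 2, and at 3.8e-07 TPM in culture 3. Among the 6 compared libraries it reached 10 TPM only in 40S, the only tested transcript to do so, and it had to differ. No fold is given against values listed at 0. The fit gave a log2 difference of -5.33 on the log2(TPM + 1) scale (SE 1.01, limma adjusted p = 0.003291). In KO Polysome2 the transcript was at 12.1, 31.5 and 6.98 TPM, and in KO Polysome1 it was listed at 0 in cultures 1 and 2 and at 4.52 TPM in culture 3. WT 40S held 2.34, 98.6 and 28.5 TPM and WT 80S 18.1, 15.3 and 4.27 TPM, which overlapped (limma adjusted p = 0.5557). Its call ended without the culture block (-5.33, limma adjusted p = 0.05581) and after ERCC scaling (-1.36, 0.07844). It ended as well with only the 6 compared libraries and no block (-5.33, limma adjusted p = 0.05426). The size followed the pseudocount, at -8.62 with 0.1 TPM and -3.15 with 5 TPM.

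ENST00000389680.2 fell from 23359, 7594 and 8473 TPM in KO 40S to 2441, 1409 and 841 TPM in KO 80S, without overlap. The log2 difference was -3.01 (SE 0.56, limma adjusted p = 0.002769), at -3.26, -2.43 and -3.33 by culture, and turned to 0.62 after ERCC scaling (SE 0.68, limma adjusted p = 0.3712). The call ended with culture 2 left out (limma adjusted p = 0.108), with culture 3 left out (0.1547) and without the culture block (0.1146), with differences of -3.29, -2.84 and -3.01. It ended as well with only the 6 compared libraries and no block (-3.01, limma adjusted p = 0.2467). In WT the same transcript fell from 2702, 6134 and 3213 TPM to 422, 333 and 742 TPM (-2.995, SE 0.56, limma adjusted p = 0.0007173). KO Input held 6559, 4419 and 2024 TPM and WT Input 2670, 1426 and 2817 TPM.

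The fourth transcript called lower showed a gap between the cultures. It was at 125, 116 and 85.0 TPM in KO 40S and at 60.1, 46.2 and 0.721 TPM in KO 80S, with log2 differences of -1.04, -1.3 and -5.64. Its mean difference was -2.66 (SE 0.80, limma adjusted p = 0.03808). The call ended without culture 3 (-1.17, limma adjusted p = 0.4871) and, with the difference at -2.66, without the culture block (0.578), with only the 6 compared libraries and the block (0.05778) and with the filter at 1 TPM (0.05041). It ended as well with a pseudocount of 0.1 TPM (-3.02, limma adjusted p = 0.1168), and ERCC scaling turned the difference to 0.71 (limma adjusted p = 0.336). WT 80S held 0.112, 0.406 and 2.29 TPM of it, and WT 40S 30.1, 37.9 and 154 TPM. Culture 3 lay within the WT 80S range.

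The number of calls moved with the libraries that gave the spread and with single cultures. With only the 6 libraries of the comparison and culture as a block, 1434 were higher and 26 lower. Without the block these 6 gave 8 higher and 0 lower (9 lower at an unadjusted limma p under 0.05), so all 4 lower calls ended there. Without culture as a block, the 18 KO libraries gave 58 higher and 0 lower (4 lower at an unadjusted limma p under 0.05). One library, KO disome culture 1, which enters only through the spread, accounted for a large part: without it, 1743 were higher and 25 lower. Without culture 1, 2 or 3 the higher calls numbered 903, 102 and 97, and the lower calls 6, 3 and 2. Of the 97 found without culture 3, 79 were among the 581.

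The 3 cultures had the same direction in most transcripts. Most transcripts were higher in 80S in each culture, so much of this would be seen without agreement on single transcripts. The median difference over all tested transcripts was 1.31, 0.67 and 0.84 in cultures 1, 2 and 3, and 88.1%, 80.2% and 79.6% of transcripts were higher in 80S. In 3018 transcripts (65.0%) all 3 cultures were higher in 80S, and in 155 (3.34%) all 3 were lower. A rise of at least 1 log2 unit in all 3 cultures was seen in 1025, and a fall of that size in 19. The differences of cultures 1 and 2 correlated across transcripts at r = 0.54, those of 2 and 3 at 0.54 and those of 1 and 3 at 0.34. In the differences, culture 3 was as close to culture 2 as culture 1 was, unlike in the levels.

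Few transcripts moved the other way in culture 3 by at least 1 log2 unit. In 17 transcripts cultures 1 and 2 differed in one direction by at least 1 log2 unit and culture 3 in the other. For culture 1 against 2 and 3 this number was 13, and for culture 2 against 1 and 3 it was 5. In 15 of the 17, cultures 1 and 2 were higher in 80S and culture 3 lower, and in 2 it was the reverse. None of the 17 was called by limma. At a threshold of 0.5 the numbers were 105 for culture 3, 52 for culture 1 and 66 for culture 2. With differences centred on each culture's median, the number for culture 3 was 20, of which 5 were lower and 15 higher in culture 3, so the prevailing direction turned.

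The widest gap belonged to a transcript at 17.2, 17.4 and 58.2 TPM in KO 40S cultures 1, 2 and 3 and at 80.8 and 49.7 TPM in KO 80S cultures 1 and 2, while KO 80S culture 3 listed it at 0. In 8 of the 15, KO 80S culture 3 was below 1 TPM. In 5 of the 15, KO 40S culture 3 was above both other cultures. Of the 2 in the reverse direction, the wider gap was in a transcript at 230, 349 and 14.1 TPM in KO 40S and at 98.0, 108 and 29.7 TPM in KO 80S. Culture 3 was there the lowest in both fractions.

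**Figure D4:**
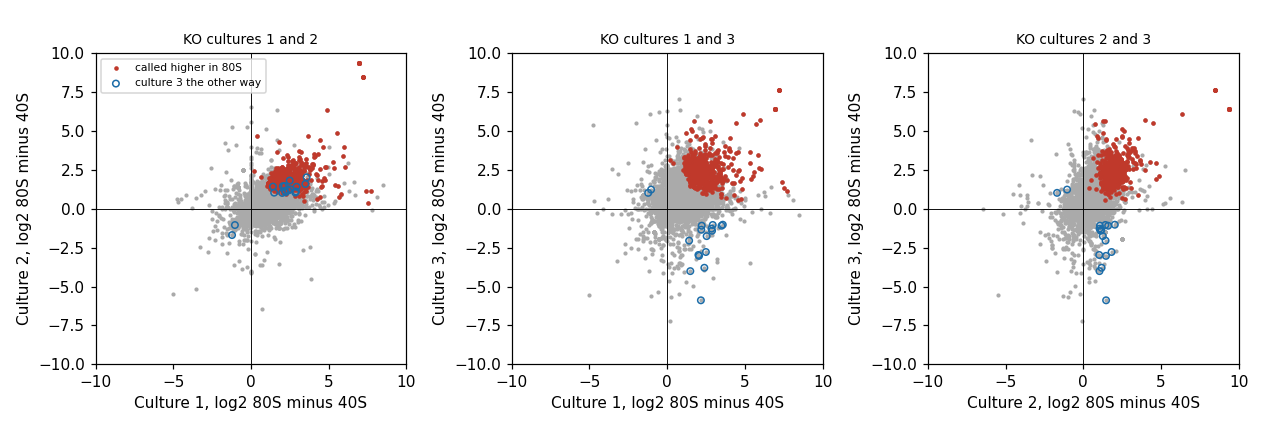
The log2 difference of 80S minus 40S in 1 KO culture against another for each of the 4646 transcripts, with the 581 higher calls in red and the 17 transcripts in which culture 3 went the other way ringed in blue. The red points lie in the upper right of all 3 panels, and the ringed points lie mostly below 0 for culture 3.

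Culture 3 also differed in level from both other cultures. The rule for level is not the rule used for direction, so the counts cannot be ranked against each other. In 547 transcripts (11.8%) KO culture 3 was at least 4-fold below both other cultures in both fractions, on the TPM + 1 scale, and in 194 (4.18%) it was at least 4-fold above both. For culture 1 these numbers were 200 and 18, and for culture 2 they were 3 and 5. The 547 had median differences between fractions of 1.57, 0.72 and 0.49 in cultures 1, 2 and 3, and the 194 had 1.04, 0.67 and 0.40. Over all tested transcripts they were 1.31, 0.67 and 0.84, so a median above 0 is not particular to these sets. In culture 3 both sets lay below the median of all tested transcripts. The 547 were near the floor there, at medians of 0.589 TPM in KO 40S and 2.02 TPM in KO 80S, where the log2(TPM + 1) scale understates a difference. Of the 547, 43 were called higher (7.86%), and of the 194, 9 were (4.64%), against 12.5% of all tested.

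The 2 sets were then read in Input and WT libraries, which did not choose them. In KO Input the median level of the 547 was 34.1 and 12.1 TPM in cultures 1 and 2 and 0.400 TPM in culture 3, and in WT Input it was 0.301 to 0.455 TPM. In WT 40S it was 0.372 and 0.262 TPM in cultures 1 and 2 and 13.6 TPM in culture 3. The median of the 194 was 20.01 and 72.5 TPM in KO Input cultures 1 and 2, 187 TPM in culture 3 and 148 to 184 TPM in WT Input. In WT 40S it was 97.5 and 105 TPM in cultures 1 and 2 and 4.49 TPM in culture 3. In Input, KO culture 3 was near the WT values in both sets. In WT 40S, culture 3 lay above the other 2 in the set that was low in KO culture 3 and below them in the set that was high there.

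**Figure D5:**
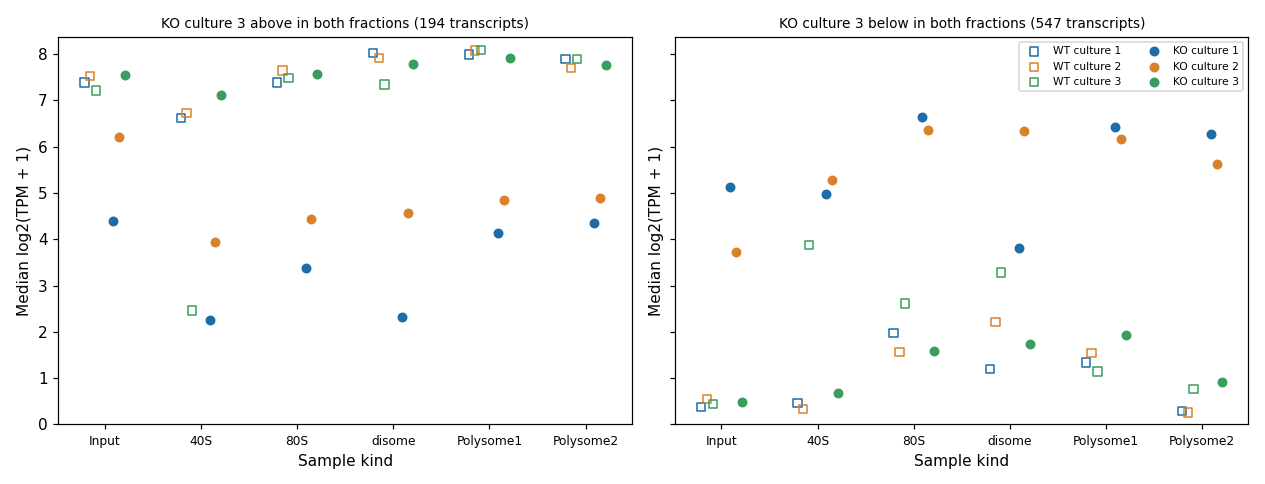
Median log2(TPM + 1) of the 194 transcripts at least 4-fold higher and the 547 at least 4-fold lower in KO culture 3 in both fractions, in each of the 36 libraries; filled circles are KO, open squares WT, and colour gives the culture. The sets were chosen on KO 40S and KO 80S, and in the other kinds of sample KO culture 3 also lies close to WT, whereas WT 40S culture 3 lies apart from WT 40S cultures 1 and 2.

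Across the KO gradient, the median level of the 581 was higher in the polysome samples than in 80S, which was not tested. Their median level, given as mean ± SD over 3 cultures, rose from 6.45 ± 2.50 TPM in KO 40S to 34.96 ± 5.62 TPM in KO 80S, by which they were chosen. The heavier fractions held 33.1 ± 19.98 TPM (KO disome), 64.0 ± 7.73 TPM (KO Polysome1) and 66.3 ± 7.20 TPM (KO Polysome2), and KO Input 23.2 ± 1.496 TPM. Over all tested transcripts the values were 15.6 ± 4.47, 31.7 ± 3.60, 28.4 ± 19.5, 43.2 ± 2.22, 39.9 ± 1.51 and 24.6 ± 3.71 TPM in the same order. In KO 40S the 581 lay below the level of all tested transcripts, and in both KO polysome samples above it. The WT libraries did not choose them. There the 581 were at 4.0 ± 0.742 TPM in 40S, 19.7 ± 2.27 TPM in 80S, 29.1 ± 6.02 TPM in disome, 31.9 ± 3.82 TPM in Polysome1 and 50.8 ± 9.51 TPM in Polysome2. All tested transcripts were at 7.73 ± 1.31, 24.7 ± 2.98, 34.6 ± 2.67, 34.2 ± 4.64 and 29.7 ± 0.194 TPM. In WT the 581 thus lay above all tested transcripts in Polysome2 only, of these 5 fractions.

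As a share of the library, the 581 took 0.883%, 1.59% and 1.13% of KO 40S in cultures 1, 2 and 3 and 9.95%, 18.5% and 7.54% of KO 80S. They were chosen on this difference. The 2 sets of identical rows that hold ENST00000611446.1 and ENST00000363754.1, 28 IDs in all, carried 3.46%, 11.3% and 0.945% of KO 80S, and the other 553 carried 6.49%, 7.17% and 6.59%. The share of the 581 in KO disome was 55.3% in culture 1, of which the 28 IDs carried 27.5 percentage points, and 9.86% and 8.36% in cultures 2 and 3. In WT they took 1.37% to 1.65% of 40S and 3.49% to 6.97% of 80S.

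The WT libraries of both fractions, fitted in the same way, gave more calls on the same transcripts. In WT 80S against WT 40S, 2965 transcripts were higher (63.8%) and 63 lower (1.36%), with a median log2 difference of 1.48 (limma adjusted p under 0.05, 18 WT libraries). Without WT culture 3 the numbers were 2662 and 82, with a median of 1.16. The median SE of a difference was 0.63 in KO and 0.47 in WT. The centring scalings gave a more even split here too, by construction, with 206 higher and 191 lower for quantile normalization and 256 and 312 for median-of-ratios scaling. ERCC scaling gave 4073 higher and 2 lower.

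Of the 581 called higher in KO, 510 were called higher in WT (87.8%) and none lower, beside the 63.8% and 1.36% of all tested transcripts. Their median difference was 2.18 in KO and 1.94 in WT. With WT culture 3 left out, 506 of the 581 were called higher in WT (87.1%, against 57.3% of all tested). With culture 3 of both genotypes left out, 73 of the 97 KO calls were (75.3%). In 535 of the 581 all 3 WT cultures were higher in 80S (92.1%, against 71.5% of all tested transcripts). Of the 4 called lower in KO, 3 were called lower in WT.

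Whether the difference between fractions was itself different in KO was tested as an interaction over all 36 libraries, with the 6 cultures as a block. It called 3 transcripts, 0.0646% of those tested, 1 with a larger difference in KO and 2 with a smaller one (limma adjusted p under 0.05). At an unadjusted limma p under 0.05 there were 582. The median over all tested transcripts was -0.41 on the log2 scale. It was -0.08 with quantile normalization, 0.12 with median-of-ratios scaling, -1.18 with ERCC scaling and -0.16 without WT culture 3. The pseudocount stayed at 1 TPM under ERCC scaling. With pseudocounts of 0.1 and 5 TPM the median was -0.57 and -0.20. It was -0.56 without KO culture 1, -0.57 without WT culture 2 and -0.79 with TPM rescaled without the 50 most abundant transcripts.

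The transcript with the larger difference in KO reached 10 TPM only in 80S among the KO libraries compared, so its KO fractions had to differ. It was at 1.24, 0.586 and 0 TPM in KO 40S and at 46.6, 33.7 and 45.7 TPM in KO 80S. In WT it was at 25.3, 14 and 188 TPM in 40S and at 42.1, 30.6 and 21.6 TPM in 80S. The KO fractions did not overlap and the WT fractions did, with WT 40S culture 3 the highest. The difference between KO and WT was 5.23 (SE 0.92, limma adjusted p = 0.02945), and 1.55 after ERCC scaling (SE 1.07, limma adjusted p = 0.3489).

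The other 2 rose in WT 80S and were not called in KO, where their differences were -0.67 and -0.42 on TPM as deposited. The separate KO and WT calls followed the scaling. With ERCC scaling both were called higher in KO, at 2.10 and 1.55 (limma adjusted p = 0.005206 and 0.0295). With quantile normalization and median-of-ratios scaling the first of them was called lower in KO (-2.48 and -1.66, limma adjusted p = 0.0184 and 0.007021) and was not called in WT (0.74 and 0.76, 0.1498 and 0.1005). The first was at 23.9, 22.1 and 28.3 TPM in KO 40S and at 16.4, 8.64 and 23.8 TPM in KO 80S. In WT it was at 8.37, 10.7 and 2.41 TPM in 40S and at 33.4, 35.7 and 34.2 TPM in 80S (difference between KO and WT -2.97, SE 0.56, limma adjusted p = 0.0303). The second was at 1.98, 10.1 and 20.7 TPM in KO 40S and at 2.67, 4.22 and 14.8 TPM in KO 80S. In WT it was at 6.41, 8.44 and 1.72 TPM in 40S and at 46.7, 41.3 and 60.5 TPM in 80S (-3.53, SE 0.68, limma adjusted p = 0.0303). In both, the WT fractions did not overlap and the KO fractions did.

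The calls of this test moved with single cultures and with the scaling. Without KO culture 2, KO culture 3, WT culture 2 or WT culture 3, limma called 0 transcripts, with 322, 479, 718 and 214 at an unadjusted p under 0.05, and without KO culture 1 it called 98 and without WT culture 1 it called 28. Without culture 3 of both genotypes it called 1, which was none of these 3, with 260 at an unadjusted p under 0.05. Quantile normalization gave 121 calls, 71 larger and 50 smaller in KO, and median-of-ratios scaling gave 100, 62 larger and 38 smaller, and both included the 3. ERCC scaling called 2, among them the second of the pair above (-4.63, SE 0.84, limma adjusted p = 0.02376).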

How the data were processed

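The authors deposited 1 table of TPM values for 223367 Ensembl transcripts and 92 ERCC rows in 36 libraries. Kallisto, sleuth and the build hg19 are named, without versions, per the submitters' processing notes. TPM keeps no depth. Depth is thus unknown, and intervals for counting error are left out. Columns were matched to samples by their descriptions.

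ERCC rows were set aside. Values were taken as log2(TPM + 1), which understates the change of low transcripts, and fitted with limma 3.58.1 in R 4.3.3 (variance trend, 18 KO libraries, 6 fraction means, culture as a fixed block). WT was fitted likewise, and the interaction on all 36 libraries. The Benjamini-Hochberg adjustment ran over all tested transcripts, with calls at 0.05. The labels give each genotype a number from 1 to 3 across its fractions (KO1 and so on), read as a culture, and deviations from the fraction mean in 40S and 80S of 1 KO culture correlated at 0.71 to 0.87 (WT 0.19 to 0.32). Named transcripts were the 2 largest rises and 2 largest falls among calls with 1 sign in all 3 cultures whose higher fraction averaged 20 TPM or more. Identical rows counted once. The planned rule named more, which needs gene names. Of 59792 RefSeq genes, 0 carried an Ensembl ID, so 35 gene lists, sums per gene and removal of mitochondrial transcripts were not analysed here. The members and lists were chosen with earlier results of these data known. The fits were tested on simulated data. The other values and figures came from Python 3.11.15 with scipy 1.17.1, pandas 2.3.3, numpy 2.4.6 and matplotlib 3.10.9.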

Additional observations from a re-analysis of the deposited data

Results flagged for a closer look

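The difference between KO and WT in 80S against 40S was tested as an interaction. The effect of the fraction differed between the libraries labelled KO and WT in 3 transcripts (limma adjusted p under 0.05). Whether the culture 3 libraries hold the genotype of their label cannot be told here. The log2 differences between KO and WT were 5.23, -2.97 and -3.53. The transcript at 5.23 reached 10 TPM only in 80S among the KO libraries compared, so its KO fractions had to differ. Its highest value in WT was the 188 TPM of WT 40S culture 3. No transcript was called with KO culture 2, KO culture 3, WT culture 2 or WT culture 3 left out (limma, with 322, 479, 718 and 214 transcripts at an unadjusted p under 0.05), and with culture 3 of both genotypes left out the differences were 3.54, -2.65 and -2.82 (limma adjusted p = 0.4722, 0.3984 and 0.4722).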

How the results depend on the processing

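Counts are given as higher and lower calls in KO 80S, then as calls of the difference between KO and WT. With 1 TPM or more in 3 of the 6 libraries they were 1323 and 15, then 7, and with 10 TPM in all 6 they were 6 and 1, then 0 (203 at an unadjusted limma p under 0.05). Quantile normalization gave 248 and 111, then 121, median-of-ratios scaling 293 and 120, then 100, and TPM rescaled without the 50 most abundant transcripts 76 higher, then 27. ERCC scaling gave 4554 and 0. Pseudocounts of 0.1 and 5 TPM gave 1 and 12 calls of the difference. The spread from only the 6 libraries gave 1434 and 26 with the replicate block and 8 and 0 without it (697 in either direction at an unadjusted limma p under 0.05), and from all 36 libraries 1104 and 8. Without KO disome culture 1 they were 1743 and 25. Without the replicate block on the 18 libraries they were 58 and 0, then 1. Leaving out 1 KO culture gave 97 to 903 higher and 2 to 6 lower calls and 0 to 98 calls of the difference, and leaving out 1 WT culture gave 0 to 28 of the last, and leaving out culture 3 of both genotypes 1. The number of transcripts with culture 3 the other way was 105 and 0 at thresholds of 0.5 and 2 log2 units and 28 and 5 with pseudocounts of 0.1 and 5 TPM. ENST00000389680.2 turned to 0.62 with ERCC scaling. For these changes the cause was not tested. The other settings tried for these counts stayed within 1.5 times. ENST00000611446.1 kept its call in all 18 settings tried, at 6.83 to 9.54 on the log2 scale, and ENST00000363754.1 in 17 of 18. The planned sums per gene and the rescaling without mitochondrial transcripts were not run, because no transcript could be named. Depth is unknown, so values near 0 in 40S carry an unknown counting error.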
